A study of Mus musculus with 9 samples.

Results

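A set of 40 genes of the endoplasmic reticulum (ER) folding and secretion machinery were followed through RNA sequencing of mouse spleen. The members were given by symbol and looked up in the count table through their Ensembl identifiers, and all 40 were found among 21965 counted genes. They comprise 12 chaperones and their partners, 4 protein disulphide isomerases, 7 genes of ER-associated degradation, 5 of the translocon, 4 of the translocon-associated protein (TRAP) complex, 4 of signal peptidase, 3 of oligosaccharyltransferase and the cargo receptor Lman1. Of these, 39 had enough counts to be tested, and Sec61g, with 15 counts over all libraries, did not.

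The spleens came from 16-week-old mice of 3 groups with 3 libraries each. These were BWF1 females (the NZB x NZW F1 cross, named by the series as prone to lupus), BWF1 males of the same cross (named as not prone) and BALB/c females (also named as not prone). No treatment or engineered allele is given for any group. BWF1 females and BWF1 males differ in sex, BWF1 females and BALB/c females in strain, and BWF1 males and BALB/c females in strain and sex together, which cannot be told apart. The labels number the libraries 1 to 3 but say no more about them, so p-values measure the spread between these samples.

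Proteins bound for the cell surface, for secretion or for the organelles of the secretory route enter the ER through the Sec61 channel, lose their signal peptide, receive sugar chains and fold with the help of chaperones and disulphide isomerases. Chains that fail to fold are drawn back into the cytosol and degraded. When the load exceeds the capacity, the unfolded protein response raises the folding genes through the transcription factors XBP1 and ATF6, which act on promoter elements shared by many of them. In the spleen this machinery is known above all from plasma cells, which secrete antibody.

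The depth was low. Gene counts per library ran from 458608 to 4305003, of which the single gene Lars2 took 42.3 to 76.6%. The 40 members together had 1407 counts in the poorest library and 18551 in the richest. Of all alignments, 1.29 to 2.05% fell in genes in the BWF1 libraries, against 2.14 to 2.82% in the BALB/c libraries. Between 55.9 and 61.5% were not unique. The share in genes thus differed with strain, and its part in the results was not tested. The series text speaks of splenocytes, but each sample is labelled as macrophages taken by a CD11b and F4/80 sort. The summed level of 8 B cell markers ran from 2022 to 3114 CPM (counts scaled to a common library total), against 202 to 626 CPM for 10 macrophage markers, and Itgam, which encodes CD11b, had 1 count over the 3 BWF1 female libraries, 37 over the BWF1 males and 22 over the BALB/c females. In each library the B cell markers exceeded the macrophage markers. In bulk RNA, fewer cells of a type and less RNA per cell cannot be told apart.

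The promoter elements of the unfolded protein response are given first. The members were not picked by promoter sequence, but these elements are known to be shared by many folding genes. Their share among the members is therefore a description and no independent support. The ER stress response element is CCAAT and CCACG with 9 bases between them, and its second form is ATTGG and CCACG with 1 base between them. Both, and the element TGACGTGG, were searched on both strands from 250 bases before to 50 bases after each RefSeq gene start (GRCm38.p6, the mm10 build). A window was at hand for 32 of the 40 members. The first element was in 8 of them (25%), Calr, Canx, Creld2, Dnajc3, Hsp90b1, Hspa5, Pdia6 and Syvn1, and in 37 of all 27025 genes with a window (0.137%). The second form was in Dnajb11 and Herpud1, 2 of 32 (6.25%), against 12 of all genes (0.0444%). TGACGTGG was in 0 of 32 members and in 193 of all genes (0.714%). The elements of the members whose levels are described in full, and of Herpud1 as the example of the second form, are shown with 25 bases on either side, along the strand of the gene, with the element in capitals.

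Hsp90b1, distal element: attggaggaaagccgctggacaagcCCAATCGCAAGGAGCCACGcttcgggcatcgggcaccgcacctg
Hsp90b1, proximal element: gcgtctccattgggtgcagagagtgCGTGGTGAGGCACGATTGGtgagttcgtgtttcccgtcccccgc
Hspa5: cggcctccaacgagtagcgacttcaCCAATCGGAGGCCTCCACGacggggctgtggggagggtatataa
Calr: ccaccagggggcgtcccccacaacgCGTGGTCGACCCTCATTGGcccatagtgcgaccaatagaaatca
Creld2: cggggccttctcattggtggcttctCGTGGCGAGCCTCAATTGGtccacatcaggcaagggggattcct
Dnajc3: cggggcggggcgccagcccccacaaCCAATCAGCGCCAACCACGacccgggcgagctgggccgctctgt
Herpud1: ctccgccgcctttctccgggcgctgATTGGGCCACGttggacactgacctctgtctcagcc

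The distal Hsp90b1 stretch lies at chr10:86705613-86705681 and the proximal one at chr10:86705508-86705576, both on the minus strand. The elements start 212 and 107 bases before the RefSeq gene start, which differs from the GENCODE start in the Hsp90b1 coordinates given below. The Hspa5 stretch lies at chr2:34772000-34772068 on the plus strand, the Calr stretch at chr8:84847050-84847118 on the minus strand, and the Creld2 stretch at chr15:88819495-88819563 on the plus strand. For Hspa5 the stretch precedes the RefSeq start but lies inside the longer GENCODE gene span given below (chr2:34771970-34777547). The Dnajc3 stretch lies at chr14:118937802-118937870 and the Herpud1 stretch at chr8:94386352-94386412, both on the plus strand. In Calr, Creld2 and the proximal element of Hsp90b1 the match reads on the opposite strand, so that CGTGG comes before ATTGG. By role, the first element was in 7 of 14 chaperones and disulphide isomerases with a window and in 1 of 18 members of the other roles, Syvn1.

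Per kilobase of exon, 7 of the 16 chaperones and isomerases stood highest. Averaged over the 9 libraries on the scale of CPM per kilobase, Calr, the lectin chaperone calreticulin, was at 114, Pdia4, a disulphide isomerase, at 88.2 and Hsp90b1, the ER form of HSP90, at 87.4. Hspa5, which encodes the central ER chaperone BiP, followed at 73.5, Pdia3 at 54.8, Canx (calnexin) at 46.2 and P4hb at 42.0 CPM per kilobase. These 7 chaperones and isomerases led the list, and the next member, the oligosaccharyltransferase subunit Ddost, was at 27.9. At the low end were Derl2 of the retrotranslocation complex at 1.73 and Sec61g, the gamma subunit of the translocon, at 0.632. The chaperones did not all stand high, with Dnajb9 at 7.18 and Dnajc10 at 6.52. Length counts all annotated exons of a gene joined, so a long annotation, such as the 8049 bases of Derl2, lowers the value. The place of Pdia4 rests on the BWF1 libraries: it averaged 97.8 CPM per kilobase in BWF1 females and 121 in BWF1 males, against 45.4 in BALB/c females, where Hsp90b1 (57.2), Hspa5 (56.5) and Pdia3 (46.8) stood above it. The order of the neighbours Pdia4 and Hsp90b1 changed with group, since Hsp90b1 averaged 97.8 in BWF1 females and 107 in BWF1 males. Single libraries ran from 38.3 to 131 for Pdia4 and from 50.7 to 140 for Hsp90b1, ranges that include the differences between groups.

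**Figure D1:**
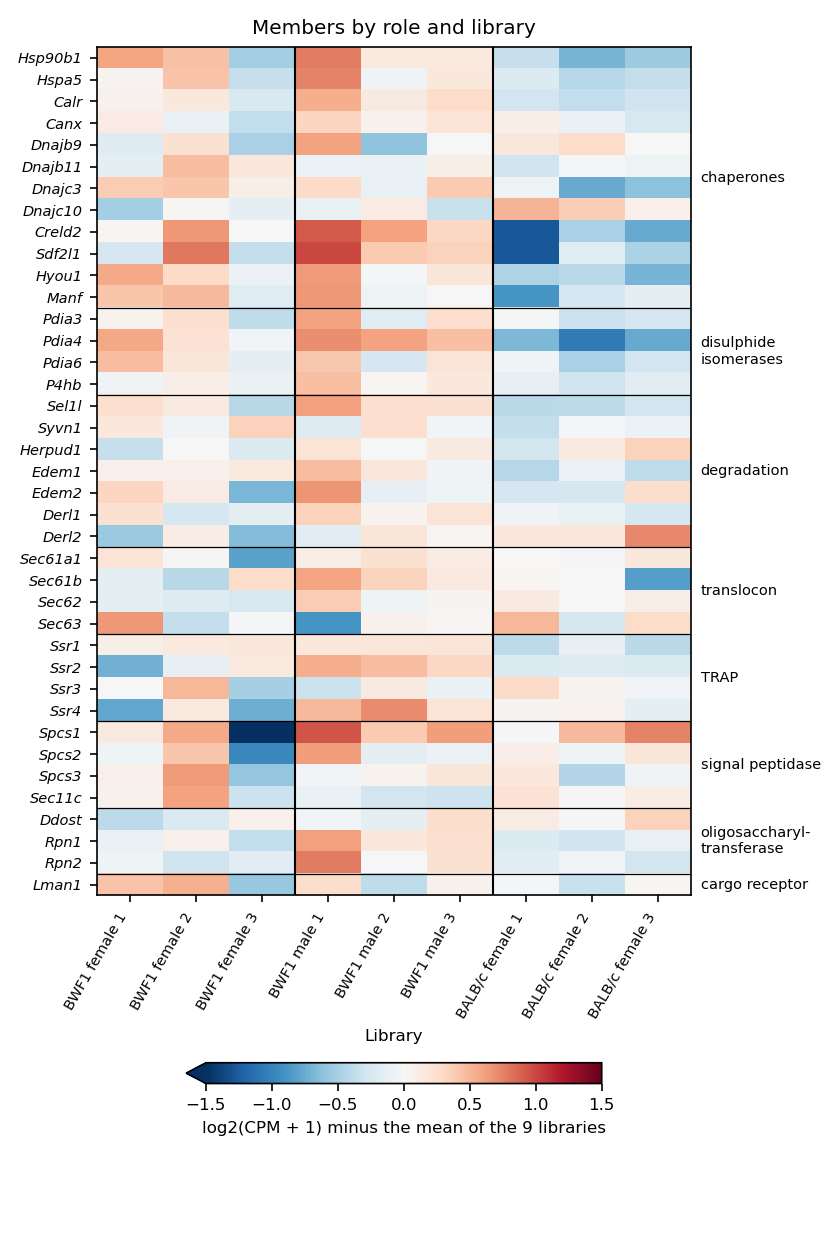
Each row is 1 of the 39 tested members in the order of roles and each column 1 library, with colour for log2(CPM + 1) minus the mean of the member over the 9 libraries. Pdia4, Creld2 and Hyou1 are blue in all BALB/c libraries, BWF1 male 1 is red for most chaperones, and Spcs1 in BWF1 female 3, where it had 0 counts, lies beyond the end of the colour scale.

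BWF1 females were set against BALB/c females to ask how the lupus-prone group differs from another strain of the same sex and age. In this comparison 5 folding genes were higher in BWF1 females, namely Pdia4, Creld2, Hyou1, Hsp90b1 and Dnajc3, and 0 of 39 members were lower. That is 12.8% of the members called higher, where 1.79% of all 7719 tested genes were called higher and 2.03% lower (edgeR quasi-likelihood test with Benjamini-Hochberg adjustment, called at an adjusted p under 0.05). All 5 are chaperones, chaperone partners or isomerases (5 of 16 called), and 0 of the 23 tested members of the other roles were called. The median log2 fold change over the 39 members was 0.14, with 25 above 0 and 14 below, and the median over all genes was -0.00.

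Pdia4, on chromosome 6 (chr6:47796141-47813430, minus strand, ENSMUSG00000025823), helps client proteins form disulphide bonds. It was at 289, 226 and 189 CPM in BWF1 females 1 to 3, against 121, 92.0 and 114 CPM in BALB/c females 1 to 3. The groups did not overlap, and the log2 fold change was 1.11 ± 0.17 (SE, adjusted p = 1.8e-04, edgeR). Creld2 (chr15:88819646-88826683, plus strand, ENSMUSG00000023272), a disulphide isomerase-like gene of the unfolded protein response, was at 33.1, 51.6 and 32.9 CPM in BWF1 females, against 12.9, 23.0 and 18.8 CPM in BALB/c females. Its groups did not overlap either, with a log2 fold change of 1.11 ± 0.27 (SE, adjusted p = 0.017, edgeR). These levels rest on 15 to 35 counts per library in the 2 groups.

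Hyou1 (chr9:44379490-44392369, plus strand, ENSMUSG00000032115) encodes a large HSP70-like chaperone that exchanges nucleotide on BiP. It was at 194, 160 and 123 CPM in BWF1 females, against 94.2, 98.6 and 80.3 CPM in BALB/c females. All 3 BWF1 females lay above all BALB/c females, and the log2 fold change was 0.80 ± 0.19 (SE, adjusted p = 0.013, edgeR). Dnajc3 (chr14:118937976-118981697, plus strand, ENSMUSG00000022136), a J-domain co-chaperone of BiP, was at 88.2, 90.3 and 71.9 CPM in BWF1 females, against 64.0, 39.4 and 43.6 CPM in BALB/c females. The gap between BWF1 female 3 and BALB/c female 1 was small, and the log2 fold change was 0.77 ± 0.21 (SE, adjusted p = 0.034, edgeR).

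Hsp90b1 (chr10:86690209-86705509, minus strand, ENSMUSG00000020048) folds Toll-like receptors and integrins among its known clients. It was at 501, 450 and 232 CPM in BWF1 females, against 259, 204 and 228 CPM in BALB/c females. BWF1 female 3 lay within the BALB/c range, so the groups overlapped although the gene was called, at a log2 fold change of 0.77 ± 0.21 (SE, adjusted p = 0.033, edgeR). Hspa5 (chr2:34771970-34777547, plus strand, ENSMUSG00000026864) was at 309, 405 and 236 CPM in BWF1 females, against 260, 223 and 234 CPM in BALB/c females. BWF1 female 3 again lay within the BALB/c range, and Hspa5 was not called, at a log2 fold change of 0.41 ± 0.19 (SE, adjusted p = 0.273, edgeR).

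**Figure D2:**
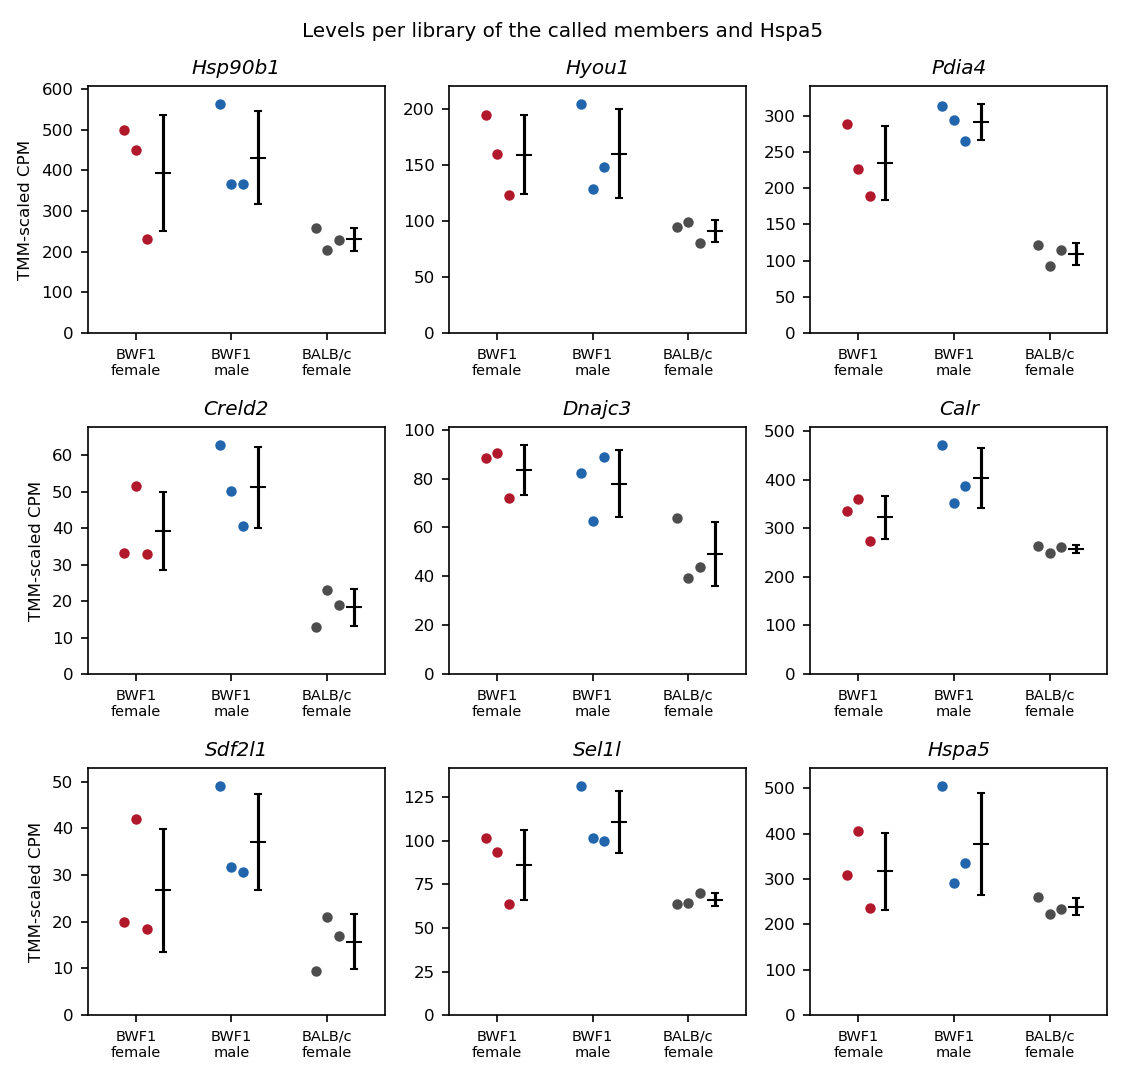
Each panel plots 1 member, with a dot for each library (1 to 3 from left to right within a group) and beside the dots the mean with its SD (n = 3), on an axis of TMM-scaled CPM that starts at 0. The 8 members called in either comparison with BALB/c are shown with Hspa5, and BWF1 female 3 is the lowest BWF1 female in every panel.

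In the other roles the member with the lowest p in this comparison stayed short of the threshold in each case. Edem1, a lectin-like mannosidase of degradation, was at 121 ± 3.47 CPM in BWF1 females and 91.8 ± 12.2 CPM in BALB/c females (SD, n = 3 each), with a log2 fold change of 0.40 (adjusted p = 0.229, edgeR). Ssr1, the alpha subunit of TRAP, was at 64.0 ± 2.03 CPM in BWF1 females and 46.9 ± 5.49 CPM in BALB/c females (SD, n = 3 each), with a log2 fold change of 0.45 (adjusted p = 0.214, edgeR). For both genes the 2 groups did not overlap. Sec62 of the translocon had a log2 fold change of -0.27, Ddost -0.33, Lman1 0.33 and the signal peptidase subunit Spcs1 -0.59 with an SE of 0.47. Spcs1 had 0 counts in BWF1 female 3, where 3 counts would be 6.39 CPM of the raw library total, and it shares exons with another counted gene.

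Over the 39 members the 2 groups did not overlap for 11, of which 8 were higher (20.5%) and 3 lower (7.69%) in BWF1 females. Of all tested genes 10.3% were higher and 10.9% lower in this way. The 3 lower members were Dnajc10, Derl2 and Sec62, named after their values were seen, and their log2 fold changes were -0.54, -0.70 and -0.27. None of the 3 passed the test.

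The count of 5 called members depended on single libraries. The share of all tested genes called in each of these settings is not given, so a loss particular to the members cannot be read from the counts. It was 2 without BWF1 female 1 (Creld2 and Pdia4), 2 without BWF1 female 2 (Hyou1 and Pdia4), 5 without BWF1 female 3, and 3, 3 and 1 without BALB/c females 1, 2 and 3, with Pdia4 called each time. File names carry the tag ORIG in BWF1 female 2, BWF1 male 2 and all BALB/c libraries and RL in the other 4, with no stated meaning. Among ORIG libraries alone, with 1 BWF1 female whose spread is taken from the BALB/c libraries, 7 members were called higher, and with the tag as a term 2 were, Creld2 and Pdia4.

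BWF1 males were set against the same BALB/c libraries, so the 2 comparisons share their BALB/c values. Here 7 members were higher in BWF1 males and 0 of 39 were lower. That is 17.9% called higher, where 1.67% of all tested genes were called higher and 1.85% lower. Among the chaperones and isomerases 6 of 16 were called, and among the other roles 1 of 23, Sel1l. The median log2 fold change over the 39 members was 0.40, with 32 above 0 and 7 below, and the median over all genes was -0.00.

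Pdia4 was at 314, 294 and 265 CPM in BWF1 males 1 to 3, against the 92.0 to 121 CPM of BALB/c females given above. The log2 fold change was 1.42 ± 0.17 (SE, adjusted p = 3.35e-06, edgeR), the lowest p of any member in this comparison. Creld2 was at 62.8, 50.2 and 40.6 CPM in BWF1 males, against 12.9 to 23.0 CPM in BALB/c females, with a log2 fold change of 1.45 ± 0.26 (SE, adjusted p = 9.3e-04, edgeR). For both genes every BWF1 male lay above every BALB/c female.

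Hsp90b1 was at 563, 366 and 367 CPM in BWF1 males, against 204 to 259 CPM in BALB/c females, and its log2 fold change was 0.90 ± 0.21 (SE, adjusted p = 0.012, edgeR). Hyou1 was at 204, 128 and 148 CPM in BWF1 males, against 80.3 to 98.6 CPM in BALB/c females, and its log2 fold change was 0.80 ± 0.19 (SE, adjusted p = 0.012, edgeR). In both genes BWF1 male 1 stood well above the other two, and the groups did not overlap.

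Calr (chr8:84841850-84846934, minus strand, ENSMUSG00000003814), which retains glycoproteins until they fold, was at 471, 352 and 388 CPM in BWF1 males, against 264, 249 and 261 CPM in BALB/c females. Its log2 fold change was 0.64 ± 0.15 (SE, adjusted p = 0.013, edgeR), and the BALB/c libraries lay close together. In BWF1 females Calr was at 335, 360 and 273 CPM, above every BALB/c library but not called, at a log2 fold change of 0.32 (adjusted p = 0.274, edgeR). Sel1l (chr12:91806043-91849157, minus strand, ENSMUSG00000020964), the adaptor of the ubiquitin ligase that marks misfolded proteins, was at 131, 102 and 100 CPM in BWF1 males, against 64.0, 64.4 and 70.4 CPM in BALB/c females. It was the only called member outside the chaperones and isomerases in this comparison, with a log2 fold change of 0.74 ± 0.19 (SE, adjusted p = 0.022, edgeR).

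Sdf2l1, a partner of the ER chaperone complexes, was at 37.1 ± 10.3 CPM in the BWF1 males and 15.7 ± 5.92 CPM in the BALB/c females (SD, n = 3 each), with a log2 fold change of 1.19 (adjusted p = 0.033, edgeR). Dnajc3 was at 82.4, 62.5 and 88.9 CPM in BWF1 males and overlapped with BALB/c female 1, at a log2 fold change of 0.67 that was not called (adjusted p = 0.066, edgeR). Hspa5 was at 504, 290 and 336 CPM in BWF1 males, against 223 to 260 CPM in BALB/c females. The groups did not overlap, yet Hspa5 lay just outside the threshold, at a log2 fold change of 0.65 ± 0.19 (SE, adjusted p = 0.053, edgeR). The member with the lowest p of oligosaccharyltransferase was Rpn1 (log2 fold change 0.56, adjusted p = 0.086, edgeR) and that of TRAP was Ssr2 (0.65, adjusted p = 0.126, edgeR), and neither was called. The translocon subunit Sec61b was at 0.56, Lman1 at 0.11 and the signal peptidase subunit Sec11c at -0.37, all on the log2 scale and none of these 3 called.

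The groups did not overlap for 19 of 39 members, 18 higher and 1 lower in BWF1 males, where 11.6% of all tested genes were higher and 11.9% lower in this way. The lower one was Sec11c, at 28.7 ± 2.33 CPM in the BWF1 males and 36.8 ± 2.68 CPM in the BALB/c females (SD, n = 3 each). BWF1 male 1 bore on the count of calls, which was 3 without it (Calr, Creld2 and Pdia4), and it was 4 without BALB/c female 2 or BALB/c female 3. Shares over all tested genes in these settings are not given here either. Among ORIG libraries alone, with 1 BWF1 male, 3 members were called (Creld2, Hsp90b1 and Pdia4), and with the tag as a term 3 were (Creld2, Pdia4 and Sdf2l1).

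**Figure D3:**
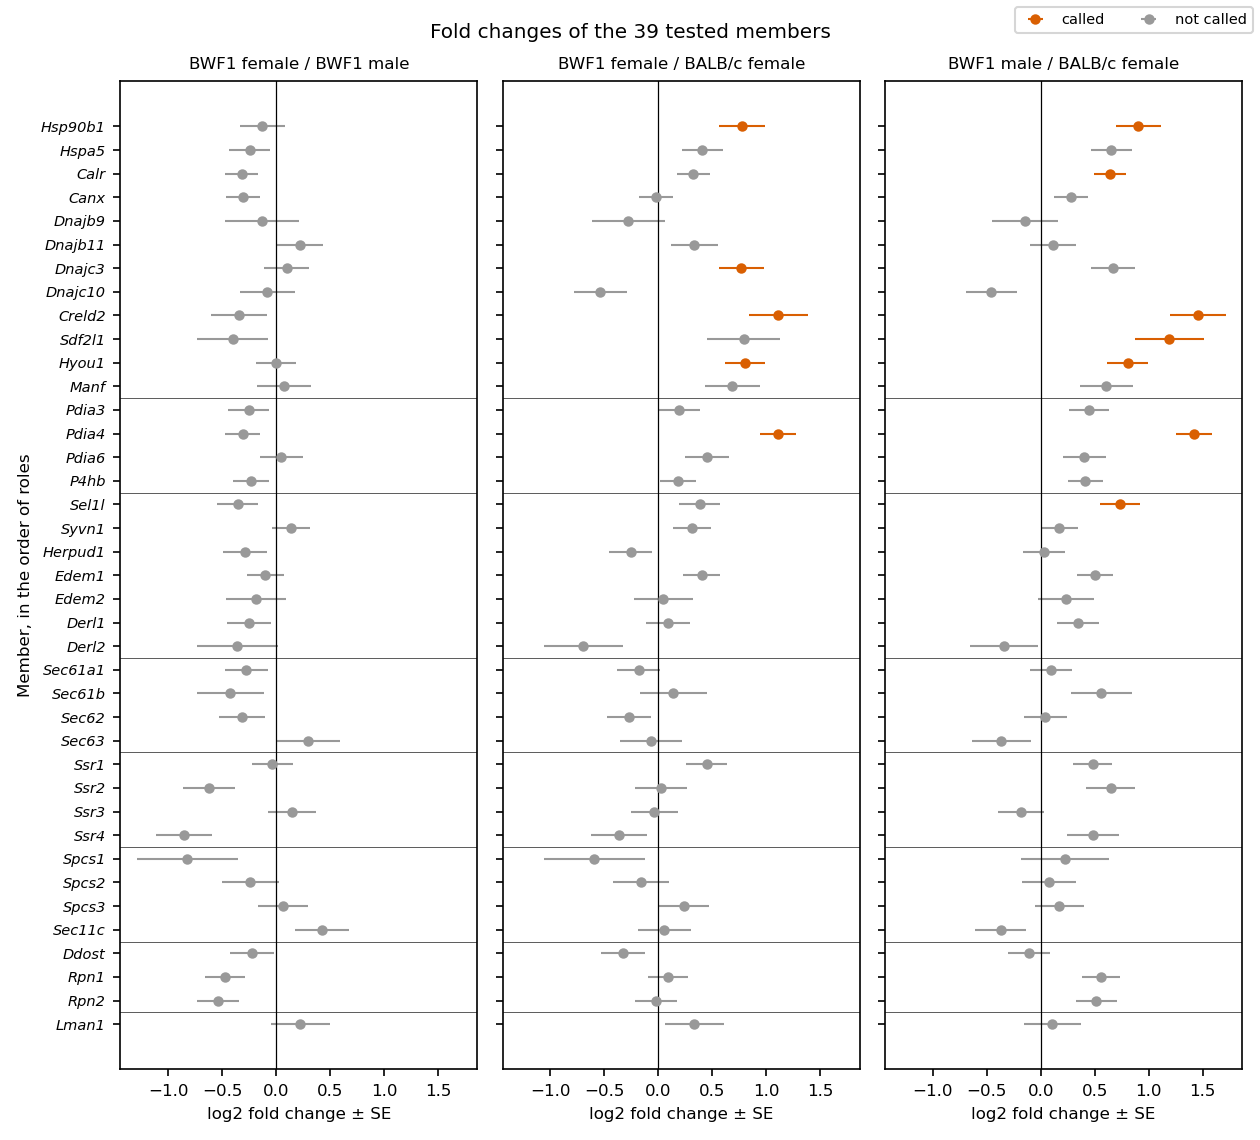
Points give the log2 fold change of each tested member in the 3 comparisons and bars its SE, with members in the order of roles and those called in orange. Called members lie to the right of 0 in the 2 comparisons with BALB/c females and, apart from Sel1l, among the chaperones and isomerases at the top, whereas BWF1 females against BWF1 males show 0 called members and most points left of 0.

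BWF1 females were set against BWF1 males to compare the lupus-prone sex with the other sex of the same cross. In this comparison 0 of 39 members were called, where 0.959% of all tested genes were called higher and 1.23% lower. At an unadjusted p under 0.05, edgeR gave 5 of 39 members (12.8%), where 16.4% of all tested genes passed that level, and DESeq2 and limma-voom likewise called 0. The log2 fold changes ran from -0.85 to 0.43 with a median of -0.24, 10 above 0 and 29 below, and the median over all genes was 0.00. A p that misses the threshold does not show that these levels were equal at this depth.

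The groups did not overlap for 5 of 39 members (12.8%), all lower in BWF1 females. Of all tested genes 18.7% did not overlap, 9.68% lower and 9.04% higher. The members thus separated no more often than genes at large, and the 5 are given as description. These were Sec62, Ssr2, Ssr4, Rpn1 and Rpn2, of which Ssr2 and Rpn1 were named after their values were seen, and 0 of the 16 chaperones and isomerases were among them. Ssr4, the delta subunit of TRAP, was at 19.8, 38.7 and 20.5 CPM in BWF1 females, against 49.0, 57.4 and 40.4 CPM in BWF1 males. Its log2 fold change of -0.85 ± 0.26 was the closest to the threshold (SE, adjusted p = 0.084, edgeR), on 9 to 24 counts in each BWF1 female.

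Rpn2, an oligosaccharyltransferase subunit whose exons overlap those of another counted gene, was at 83.8, 71.0 and 78.0 CPM in BWF1 females, against 151, 87.2 and 103 CPM in BWF1 males. Its log2 fold change was -0.54 ± 0.19 (SE, adjusted p = 0.149, edgeR). Rpn1, its partner in the same complex, was at 76.0 ± 11.8 CPM in BWF1 females and 106 ± 18.7 CPM in BWF1 males (SD, n = 3 each), with a log2 fold change of -0.47. Both genes were within 0.1 of 0 on the log2 scale between BWF1 females and BALB/c females, at -0.02 for Rpn2 and 0.09 for Rpn1.

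For the genes called against BALB/c females, the log2 fold change between BWF1 females and BWF1 males was -0.31 for Pdia4, -0.34 for Creld2, -0.00 for Hyou1, -0.13 for Hsp90b1 and 0.10 for Dnajc3. It was -0.32 for Calr, -0.40 for Sdf2l1 and -0.35 for Sel1l, and none of the 8 was called. The SEs ran from 0.15 for Calr to 0.33 for Sdf2l1. Hsp90b1 and Hspa5 (-0.24) changed sign without BWF1 male 1, to 0.12 and 0.027, so no direction can be given for them.

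Among 77 further genes of the pathway, 68 were tested. In BWF1 females against BALB/c females 0 were called higher and 1 lower (1.47%). Over all tested genes 1.79% were called higher and 2.03% lower. In BWF1 males against BALB/c females 4 were higher (5.88%) and 1 lower (1.47%), where 1.67% of all tested genes were higher and 1.85% lower. Xbp1, the transcription factor that raises ER folding capacity and is needed for antibody secretion, was at 97.0, 98.4 and 65.7 CPM in BWF1 females and at 135, 95.4 and 86.6 CPM in BWF1 males, against 51.7, 61.1 and 52.5 CPM in BALB/c females. Both BWF1 groups lay above all BALB/c libraries. The log2 fold change against BALB/c was 0.66 ± 0.20 in BWF1 females, short of the threshold (SE, adjusted p = 0.070, edgeR), and 0.92 ± 0.20 in BWF1 males (SE, adjusted p = 0.006, edgeR).

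Creb3l2, a membrane-bound factor for secretory genes, was also higher in BWF1 males, at 32.2 ± 1.01 CPM, against 12.7 ± 2.15 CPM in BALB/c females (SD, n = 3 each). Mzb1, an ER co-chaperone of antibody-making B cells, was at 125 ± 43.1 CPM in BWF1 males, against 72.2 ± 13.9 CPM in BALB/c females, and Hm13, the signal peptide peptidase, at 107 ± 14.4 CPM in BWF1 males, against 61.4 ± 11.3 CPM in BALB/c females (SD, n = 3 each). Their log2 fold changes were 1.31, 0.77 and 0.80 (adjusted p = 0.008, 0.039 and 0.010, edgeR). Ppp1r15a, the stress-induced subunit that restores translation by dephosphorylating eIF2 alpha, was lower in both BWF1 groups. It was at 37.4 ± 2.14 CPM in BWF1 females and 38.9 ± 14.5 CPM in BWF1 males, against 155 ± 34.5 CPM in BALB/c females (SD, n = 3 each), a log2 fold change of -2.05 in each comparison (adjusted p = 2.7e-06 and 1.1e-06, edgeR).

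The stress sensors Atf6, Ern1 and Eif2ak3 and the factor Atf4 were not called. Atf6 had log2 fold changes against BALB/c of -0.37 in BWF1 females and -0.22 in BWF1 males. Ern1, the sensor that starts Xbp1 splicing, was at -0.18 in BWF1 females and -0.02 in BWF1 males, and Atf4 at -0.42 in BWF1 females and -0.49 in BWF1 males. Eif2ak3, the sensor PERK, was at 0.70 in BWF1 females (adjusted p = 0.082, edgeR) and 0.17 in BWF1 males. In BWF1 females against BWF1 males 1 of the 68 was called, Surf4, a cargo receptor of ER exit, which was lower in BWF1 females. That is 1.47% called lower, where 1.23% of all tested genes were called lower and 0.959% higher. Surf4 was at 53.8 ± 15.6 CPM in BWF1 females, against 95.7 ± 21.0 CPM in BWF1 males (SD, n = 3 each). The log2 fold change of Surf4 was -0.83 (adjusted p = 0.036, edgeR). That call was lost without any one of 5 libraries, BWF1 females 1 and 2, BWF1 males 1 and 3 and BALB/c female 3.

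Summed levels place the members beside the markers of the cell type best known for this machinery. The 16 chaperones and isomerases summed to 2536, 2576 and 1782 CPM in BWF1 females and 3209, 2263 and 2468 CPM in BWF1 males, against 1789, 1578 and 1622 CPM in BALB/c females. The 24 members of the other roles summed to 1325, 1389 and 1107 CPM in BWF1 females and 1606, 1408 and 1394 CPM in BWF1 males, against 1218, 1205 and 1273 CPM in BALB/c females. For the chaperones and isomerases BWF1 female 3 lay just below the highest BALB/c library, and the other 5 BWF1 libraries lay above all BALB/c libraries. For the other roles BWF1 females and BALB/c females overlapped, and the 3 BWF1 males lay above all BALB/c libraries. In both sums BWF1 male 1 was the highest library and BWF1 female 3 the lowest of the BWF1 libraries. BWF1 male 1 also had the lowest TMM scaling factor (0.530), which raises its CPM, and the highest share of Lars2 (76.6%). The part of this in its levels was not tested.

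Of 13 plasma cell markers 10 were tested. Called were 4 higher in BWF1 males than in BALB/c females (Jchain, Sdc1, Xbp1 and Mzb1), 0 in BWF1 females against BALB/c females and 1 lower in BWF1 females than in BWF1 males (Jchain). The 8 that are not ER genes summed to 721, 642 and 468 CPM in BWF1 females and 1838, 1382 and 1138 CPM in BWF1 males, against 787, 664 and 708 CPM in BALB/c females. Most of this sum was Jchain, the joining chain of secreted antibody, at 448, 431 and 298 CPM in BWF1 females, 1620, 1139 and 958 CPM in BWF1 males, against 572, 405 and 521 CPM in BALB/c females. Tnfrsf17 was at or near 0, with 1, 11 and 3 counts in the 3 groups. Against BALB/c females the log2 fold change of Jchain was -0.35 in BWF1 females (adjusted p = 0.345, edgeR) and 1.31 in BWF1 males (adjusted p = 5.7e-05, edgeR). In BWF1 females 7 of the 10 tested markers had a log2 fold change above 0 and 3 below, with a median of 0.08. Irf4 (-0.19) and Ell2 (-0.20) were below 0 like Jchain, and Txndc5 (0.02) and Slamf7 (0.01) were near 0. Mzb1 was at 0.68 (adjusted p = 0.079, edgeR), with BWF1 females above all BALB/c libraries. Prdm1 was at 0.83 (adjusted p = 0.331, edgeR) and Sdc1 at 0.62 (adjusted p = 0.468, edgeR), and none of these was called. In BWF1 males 8 of the 10 were above 0 and 2 below, namely Irf4 at -0.29 and Ell2 at -0.41, neither called. The part of plasma cells in these results was not tested further.

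**Figure D4:**
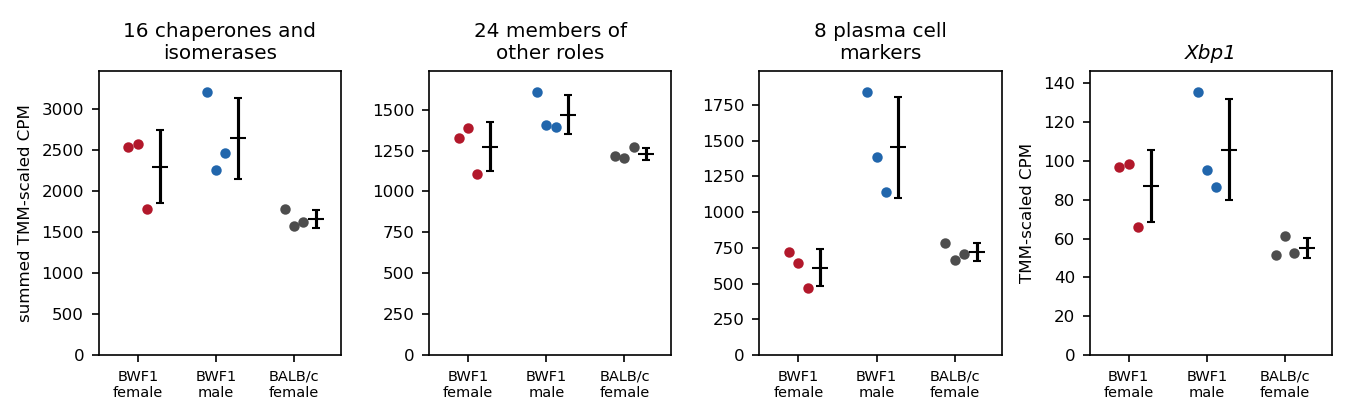
Dots give the level in each library (1 to 3 from left to right) and the bars beside them the mean with its SD (n = 3), on axes that start at 0, for the summed chaperones and isomerases, the summed members of other roles, 8 plasma cell markers that are not ER genes, and Xbp1. The plasma cell markers sum to 1138 to 1838 CPM in BWF1 males, above each library of the other 2 groups, whereas Xbp1 is above every BALB/c library in both BWF1 groups.

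Markers of other cells moved with the groups too. B cell markers summed to 2022 to 2259 CPM in BWF1 females and 2144 to 2731 CPM in BWF1 males, against 3044 to 3114 CPM in BALB/c females, with 4 of 8 called lower in BWF1 females and 1 of 8 in BWF1 males. Erythroid markers summed to 824 to 2384 CPM in BWF1 females and 204 to 1347 CPM in BWF1 males, against 1455 to 4345 CPM in BALB/c females. Between BWF1 males and BALB/c females 7 of 9 tested erythroid markers were called lower, and 3 of 7 macrophage and 4 of 6 natural killer cell markers higher. The T cell marker Cd8b1 was also higher there, and Mki67 (proliferation) and Col1a2 (stroma) lower. Over all tested genes 1.67% were called higher and 1.85% lower. Of the 7 erythroid markers, Hba-a2 had 0 counts in BWF1 females and 0 in BWF1 males, against 1082 in BALB/c females. Hba-a1 had 622, 573 and 1627 counts in the same order. Hba-a2 was also the only erythroid marker called in BWF1 females against BALB/c females. What lies behind its 0 counts was not tested. Called lower in BWF1 females against BALB/c females were also 2 of 8 T cell markers (Cd3g and Cd8a) and 1 of 6 natural killer cell markers (Prf1). So were 1 of 7 macrophage markers (Lyz2) and 1 of 5 neutrophil markers (S100a9), while the neutrophil marker Mpo was called higher. Over all tested genes 1.79% were called higher and 2.03% lower in that comparison. Between BWF1 females and BWF1 males 5 of 8 T cell, 4 of 6 natural killer cell and 4 of 7 macrophage markers were called lower in BWF1 females, and 3 of 5 proliferation markers higher. The erythroid marker Epb42 and the stromal marker Col1a2 were also higher. Over all tested genes 0.959% were called higher and 1.23% lower. The part of these shifts in the levels of the ER genes was not tested.

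Set beside the promoter elements, 7 of the 8 members called in either comparison with BALB/c had a promoter window, and 4 of the 7 held the first element (Calr, Creld2, Dnajc3 and Hsp90b1). It was also in 4 of the 25 members with a window that were not called (Canx, Hspa5, Pdia6 and Syvn1). The element went with role too, in 7 of 14 chaperones and isomerases and 1 of 18 members of other roles. All called members except Sel1l are chaperones or isomerases, and role was not held fixed in these counts. Pdia4, called against BALB/c in both BWF1 groups, held none of the 3 elements in this window, nor did Sdf2l1 or Sel1l. Herpud1, with the second form, was at 52.4 ± 6.76 CPM in BWF1 females and 64.4 ± 4.62 CPM in BWF1 males, against 63.1 ± 13.3 CPM in BALB/c females (SD, n = 3 each). A match describes letters in a window and is not a measured binding site.

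Leaving the TMM scaling out ended all calls of members. With raw library sizes alone 0 members were called in any comparison, and the median of all genes moved to -0.29 in BWF1 females and -0.44 in BWF1 males against BALB/c females. The medians of the members were then -0.15 and -0.09, still above those of all genes. Pdia4 kept its sign, at 0.83 in BWF1 females and 0.93 in BWF1 males against BALB/c females.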

How the data were processed

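RNA of 9 mouse spleen samples was sequenced, and the deposited values are raw read counts per Ensembl gene, whole numbers with the 5 HTSeq-style summary lines left out here. Ribosomal RNA was depleted and the kit is not described as marking strand, per the labels' protocols. The submitters' processing notes list STAR 2.6, FastQC 0.10.1 and mm10 without their roles. The deposited counts are named as HTSeq counts. The annotation and strand setting for counting are not given in the sources used here, so reads of overlapping genes cannot be told apart. Of the 40 members 8 share exons with another counted gene, and 0 of these 8 were called.

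Counts were analysed in R 4.3.3 with edgeR 4.0.16. filterByExpr with a minimum count of 10 kept 7719 genes and set aside 14246. TMM factors ran from 0.530 to 1.40. A quasi-likelihood model with the 3 groups was fitted to all 9 libraries, and p-values were adjusted over all 7719 genes (Benjamini-Hochberg). CPM are TMM-scaled, and the SE is the log2 fold change divided by the square root of F. limma 3.58.1 (voom) and DESeq2 1.42.0 were alternatives. The fit was tested on simulated counts. A level of 3 counts was 0.697 to 6.54 CPM of the raw library totals; reads carried no molecular identifiers, so this covers counting error only. Replicates of a group differed by more than sampling noise, with chi-square per degree of freedom from 1.23 to 2.60. Replicate numbers showed no pairing of the samples: same-numbered libraries correlated at -0.09 to 0.06 and differently numbered ones at -0.12 to 0.14. With 3 libraries a group this cannot exclude a pairing.

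Gene names, exon lengths and coordinates are from GENCODE M21 (mm10) and promoter sequences from RefSeq. The members and lists were chosen with earlier results of these data known. The genes named are those called, the member with the lowest p in each role, and Hspa5, Hsp90b1 and Xbp1. Protein sequences were not used here.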

Additional observations from a re-analysis of the deposited data

How the results depend on the processing

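Calls of members rest on few counts and few libraries, and 3 libraries a group and the low depth limit what could be detected. In BWF1 females against BALB/c females, 5 members were called; the count was 0 with raw library sizes only, 2 with DESeq2 (Hyou1 and Pdia4), 2 with the file tag as a covariate, 7 with ORIG libraries only and 1 to 5 with a library left out. For the pathway genes it was 1, and 5 with no filter on low counts, 2 with the tag, 2 with a fit on the 2 groups only, 4 with ORIG libraries only and 1 to 5 with a library left out. In BWF1 males against BALB/c females, 7 members were called; the count was 0 with library sizes only, 3 with the tag, 3 with ORIG libraries only and 3 to 9 with a library left out. For the pathway genes it was 5, and 1 with library sizes only, 2 with the tag, 3 with ORIG libraries only and 3 to 5 with a library left out. In BWF1 females against BWF1 males, 0 members were called; the count was 1 (Ssr4) with no filter, 1 with the tag and 0 to 1 with a library left out. For the pathway genes it was 1, and 0 with library sizes only, with RL libraries only or with the 2 groups only, and 0 to 1 with a library left out. The cause of these changes was not tested. Without the share of all tested genes called in each setting, they cannot be read as particular to the members or pathway genes.

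Pdia4 lost its call with library sizes only (adjusted p = 0.304 in BWF1 females and 0.101 in BWF1 males, edgeR) and kept it in the 19 other settings of each comparison. With library sizes only, the median of all genes was 0.16 between BWF1 females and BWF1 males, and that of the members -0.01. The direction reversed for Hsp90b1 between BWF1 females and BWF1 males (0.14 with library sizes only, 0.14 without BWF1 female 3, 0.12 without BWF1 male 1, and -0.34 to 0.14 over all libraries left out), for Hspa5 (0.024 with library sizes only, 0.027 without BWF1 male 1, and -0.47 to 0.027 over all libraries left out) and for Lman1 (-0.17 with RL libraries only). It also reversed for Spcs1 between BWF1 females and BALB/c females (0.17 with ORIG libraries only) and for Lman1 between BWF1 males and BALB/c females (-0.35 with library sizes only, -0.26 with ORIG libraries only, and -0.0045, without BALB/c female 2, to 0.26 with a library left out). None of these was called.

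With the replicate number as a block, 0 members were called between the 2 BWF1 groups, 5 in BWF1 females and 7 in BWF1 males against BALB/c females, and 1, 1 and 5 pathway genes; the block added Derl3 and lost Mzb1 in BWF1 males. Same-numbered libraries did not deviate together, which with 3 libraries a group shows no pairing but cannot exclude one. The fits on ORIG libraries only and with edgeR's earlier pipeline were added after seeing the data.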
